A study of Homo sapiens with 38 samples.

Results

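CD69 and 5 neighbouring C-type lectin genes (CLECL1, CLEC2D, CLEC2B, KLRF1 and KLRB1) were described by the protein binding and histone acetylation recorded around them in Jurkat, a cell line from a human T-cell acute lymphoblastic leukaemia (T-ALL). For each gene, every region of the GATA3, BHLHE40 and H3K27ac lists was taken that overlapped the RefSeq gene record plus 20 kb on each side, here called the gene's window. All 6 genes were found among the 20050 protein-coding records on the chromosomes of the lists, and they were set in a list of 21 lectin genes on chromosome 12. The lists come from chromatin immunoprecipitation and sequencing (ChIP-seq), in which fixed DNA is pulled down with an antibody and places with many reads are called as regions. The series has 38 samples in 19 groups of 2, and each of the 3 lists stands for 1 group, labelled Ctrl_LV (control lentivirus) and stimulated. The shared stimulation was PMA at 50 ng/ml with ionomycin at 500 ng/ml, given as 5 hours in the characteristics of the samples but as 2 hours in their treatment text. Every sample is labelled stimulated, and no edited or over-expressing group was analysed here. No effect of activation, editing or BHLHE40 dose was therefore measured. Both samples of a group enter 1 list, so there is no spread between replicates and no test, and the sequencing depth is unknown. Cells were analysed in bulk, so strong binding in few cells and weak binding in many cannot be told apart.

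The genes lie in the natural killer gene complex, a cluster of genes for C-type lectin-like membrane proteins. CD69 is an early activation marker of T cells that holds lymphocytes in tissue by removing the egress receptor S1PR1 from the cell surface. The neighbours include receptors and their own ligands: KLRB1 (CD161) binds the product of CLEC2D (LLT1), and KLRF1 (NKp80) binds that of CLEC2B (AICL). GATA3 is a zinc finger factor of the T-cell lineage, BHLHE40 is a basic helix-loop-helix factor that reads the E-box and is induced on activation, and H3K27ac is a histone mark of active promoters and enhancers. The cell label was checked at 8 T-cell genes (CD2, CD3D, CD3E, CD3G, CD5, CD7, LCK and PTPRC). All 8 had an H3K27ac region with a −log10 q of at least 5 within 1 kb of the record, against 58.1% of all protein-coding genes. A region at a gene does not measure its expression.

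Promoter sequences are shown first because the regions of the lists met some promoters of the cluster and not others. RefSeq promoter windows (GRCh38.p14) were matched for KLRB1 and CLEC2D among the 6 genes and for 10 of the 21 listed lectin genes. CD69, CLECL1, KLRF1 and CLEC2B had no entry. The 250 bases before the start are printed 5′ to 3′ for both matched genes and for GABARAPL1, an autophagy gene inside the same cluster. Capitals mark matches to the motifs searched on both strands: GATAA (GATA factors), CACGTG (the E-box read by BHLHE40), CAGATG (the E-box read by TAL1 with E proteins) and TGANTCA (AP-1). KLRB1 is at chr12:9607917-9608166 (minus strand), CLEC2D at chr12:9669463-9669712 (plus strand) and GABARAPL1 at chr12:10212627-10212876 (plus strand).
KLRB1: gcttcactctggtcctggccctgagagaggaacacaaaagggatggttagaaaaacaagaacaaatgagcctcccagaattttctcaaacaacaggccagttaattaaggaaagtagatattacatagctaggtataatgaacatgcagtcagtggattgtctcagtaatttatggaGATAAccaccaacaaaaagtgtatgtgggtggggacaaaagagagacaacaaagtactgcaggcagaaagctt
CLEC2D: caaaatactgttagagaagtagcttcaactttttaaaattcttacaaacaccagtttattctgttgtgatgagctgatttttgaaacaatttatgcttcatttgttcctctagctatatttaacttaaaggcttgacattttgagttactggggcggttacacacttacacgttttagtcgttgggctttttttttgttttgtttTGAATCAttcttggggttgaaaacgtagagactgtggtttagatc
GABARAPL1: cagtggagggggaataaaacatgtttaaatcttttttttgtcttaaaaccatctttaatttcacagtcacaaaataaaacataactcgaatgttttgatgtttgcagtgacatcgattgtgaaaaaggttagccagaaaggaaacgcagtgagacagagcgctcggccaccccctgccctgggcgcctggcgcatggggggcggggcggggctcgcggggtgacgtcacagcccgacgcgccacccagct

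The KLRB1 promoter held 1 GATAA match at position 178, counted from the first base printed, and the CLEC2D promoter held 1 TGANTCA match at position 206. The GABARAPL1 promoter held none of the 4 motifs. GATAA was found in 20.4% of all 35116 promoter windows of this length, CACGTG in 6.34%, CAGATG in 12.2% and TGANTCA in 6.57%, and no printed matches overlapped each other. In the lists, 21 of the 250 bases before KLRB1 lay in an H3K27ac region, while those before CLEC2D lay in no region of any list. All 250 bases before GABARAPL1 lay in a GATA3, a BHLHE40 and an H3K27ac region. Of the 12 promoter windows of listed lectin genes, 0 overlapped a GATA3 region, 0 a BHLHE40 region and 1 (KLRB1) an H3K27ac region. Over all promoter windows the shares were 13.9%, 32.4% and 34.2%. The 12 windows cover only 10 of the 21 genes and leave out CD69 and CLEC2B. GATA3 and BHLHE40 regions spanned the higher-coordinate ends of both those records, so the counts do not stand for the whole cluster. GC content was 41.2% for KLRB1 and 33.6% for CLEC2D, below the median of 58.0% over all windows, and 51.6% for GABARAPL1. The matches describe letters only.

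The CD69 window (chromosome 12, 9732486 to 9780901, around the record from 9752486 to 9760901) held 9 regions of GATA3, 5 of BHLHE40 and 14 of H3K27ac. Of the H3K27ac regions, 9 reached a −log10 q of 5, as did 25.1% of the whole H3K27ac list, and 10 kb flanks left 9 H3K27ac and 3 BHLHE40 regions. Windows with at least as many regions made up 1.56% of protein-coding genes for GATA3, 8.24% for BHLHE40 and 8.70% for H3K27ac. Since the record of CD69 is short, at 8416 bp, the count was also set against the 9036 protein-coding records of up to 20 kb, a choice made after seeing the data. Among these, 3 windows (0.0332%) reached 9 GATA3 regions: CD69, TNFAIP3, which encodes a brake on NF-kB signalling, with 9 GATA3 and 4 BHLHE40 regions, and LOC124903173 with 10 and 9. TNFAIP3 and LOC124903173 are named by a choice made after their values were seen. For BHLHE40 the share was 5.46% and for H3K27ac 0.243%.

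Coverage of the window was a measure added after seeing the data. GATA3 regions covered 21.7% of the CD69 window, and 7 of 20050 protein-coding windows (0.0349%) had at least that share. BHLHE40 regions covered 35.7%, reached by 5 windows (0.0249%), and H3K27ac regions covered 14.5%, reached by 50 windows (0.249%). CD69 itself is counted in each of these numbers. All 7, 5 and 50 windows belonged to records of up to 20 kb, among which they made up 0.0775%, 0.0553% and 0.553%. The factor coverage rested largely on 1 wide region in each list. A BHLHE40 region of 12303 bp gave most of the 17279 bp covered, and a GATA3 region of 4524 bp a large part of 10522 bp.

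**Figure D1:**
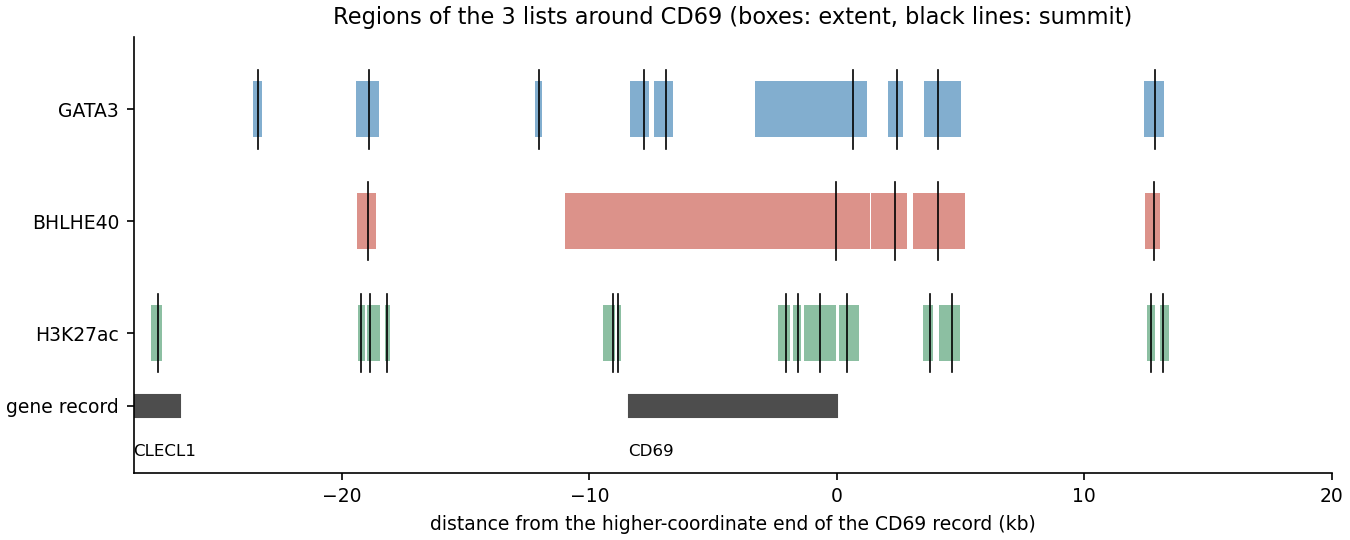
Regions of the 3 lists in the CD69 window, by distance in kb from the higher-coordinate end of the CD69 record. Boxes give the extent of each region and black lines its summit. The 12303 bp BHLHE40 box spans the whole CD69 record, and GATA3 and BHLHE40 summits lie 2 bp apart at 4068 bp to the right of the gene.

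The CD69 window held 4 places with all 3 lists. At each, a GATA3 region overlapped both a BHLHE40 and an H3K27ac region by at least 1 bp. That made 4 of 9 GATA3 regions, against 37.7% of all GATA3 regions. For so few regions this is near the background, so the number of such places is no result about CD69. CD69 is transcribed from its higher-coordinate end, and distances below are counted from there. The place nearest to the start was the GATA3 region spanning 9757585 to 9762108, whose signal value (the authors' enrichment of a region, comparable only within 1 list) was 17.6 and whose summit lay 660 bp upstream. At 4524 bp it was among the widest of the 29009 GATA3 regions, with width rank 7. The BHLHE40 region there ran from 9749918 to 9762220, with width rank 8 of 26205, a signal value of 34.4 and a summit 52 bp inside the gene.

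The second place, with the GATA3 summit 4068 bp upstream, held the strongest region of both factors in the cluster. The GATA3 region from 9764438 to 9765919 had a signal value of 96.1, which was 8.56 times the median of the list, and the BHLHE40 region from 9763957 to 9766060 had 99.2, which was 10.6 times its median. In 1.38% of protein-coding windows the strongest GATA3 region had at least this signal value, and in 0.204% the strongest BHLHE40 region did. Both summits fell into a gap of 208 bp between an H3K27ac region that ended at 9764801 and one that began at 9765010. The GATA3 summit lay 168 bp above the first and 41 bp below the second, and the BHLHE40 summit 170 bp and 39 bp. Gaps of at most 500 bp between acetylated regions held 3.99% of all GATA3 summits and 8.39% of all BHLHE40 summits.

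The third place lay farther upstream, with the GATA3 region at 9773305 to 9774134 (signal value 9.57) and the BHLHE40 region at 9773337 to 9773969 (signal value 3.59, rank 25783 of 26205). Its GATA3 summit also fell into an H3K27ac gap, of 218 bp, whereas the BHLHE40 summit 38 bp away fell inside an acetylated region. The fourth place was downstream of the gene, nearer to CLECL1. Its GATA3 region at 9741472 to 9742382 had a signal value of 14.2, and its BHLHE40 region at 9741505 to 9742283 had 28.2, with summits 39 bp apart and 7666 bp and 7627 bp from the CLECL1 record. The fourth place ranked 1523 of 26205 in the BHLHE40 list and 10626 of 29009 in the GATA3 list. In both lists the signal values of the 4 places fell in the same order, from the second to the first, the fourth and the third.

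The remaining GATA3 regions at CD69 were weaker. One inside the gene, from 9752553 to 9753300, had a signal value of 9.17, and 4 others ranged from 5.26 to 8.65, below the list median of 11.2. Of the 9 regions, 7 overlapped a BHLHE40 region, against 48.7% of all GATA3 regions, but not all had a near summit. Both GATA3 regions at the far end of the gene (summits at 9753089 and 9754006) lay in the 12303 bp BHLHE40 region, 7760 and 6843 bp from its summit. The region at 9762981 to 9763565 had its summit 49 bp from that of a BHLHE40 region with a signal value of 5.56. In turn, 5 of 5 BHLHE40 regions at CD69 overlapped GATA3, against 53.0% in the whole list, and 4 of 5 overlapped H3K27ac, against 76.4%.

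Some H3K27ac regions at CD69 had high −log10 q values with modest signal values. The median −log10 q of all 14 regions was 6.86, against 3.00 in the whole list. By −log10 q the region at 9765010 to 9765895 (354) was first in the cluster, followed by 9759557 to 9760870 at the start of the gene (118) and 9761007 to 9761813 just upstream (79.7). In all, 6 of the 9 most significant H3K27ac regions of the cluster lay in the CD69 window. A −log10 q of at least 354 was reached in 1.66% of protein-coding windows. By signal value the same regions had 6.29, 3.40 and 2.69, and 50.7% of protein-coding windows held an H3K27ac region with a signal value of at least 6.29. The 5 highest signal values also included 3.91 at 9741902 to 9742433, 3.68 at 9741555 to 9741817 and 3.30 at 9773414 to 9773742. The other 9 regions, with the 2.69 among them, ranged from 2.01 to 3.08.

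The 2 measures were therefore compared at like significance, over H3K27ac regions whose −log10 q lay within a factor of 1.2, a comparison chosen after seeing the data. For the region at the gene start, regions of like −log10 q had a median signal value of 10.9 and 0.475% of them were at or below its 3.40. For the one just upstream the median was 9.39 and 0.153% were at or below 2.69. The regions at 9758522 (signal value 2.37), 9759145 (2.33) and 9764385 (2.01) stood at 0.267%, 0.222% and 0.120%, and the most significant one at 2.38%. Each of these shares counts the region itself and rests on only 2 to 6 regions. The 6 others in the cluster that reached a −log10 q of 20 stood between 5.40% and 73.9%. The source of this difference was not tested. In the factor lists the strongest region of CD69 was high by both measures, with a −log10 q of 1789 for GATA3 and 1949 for BHLHE40.

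**Figure D2:**
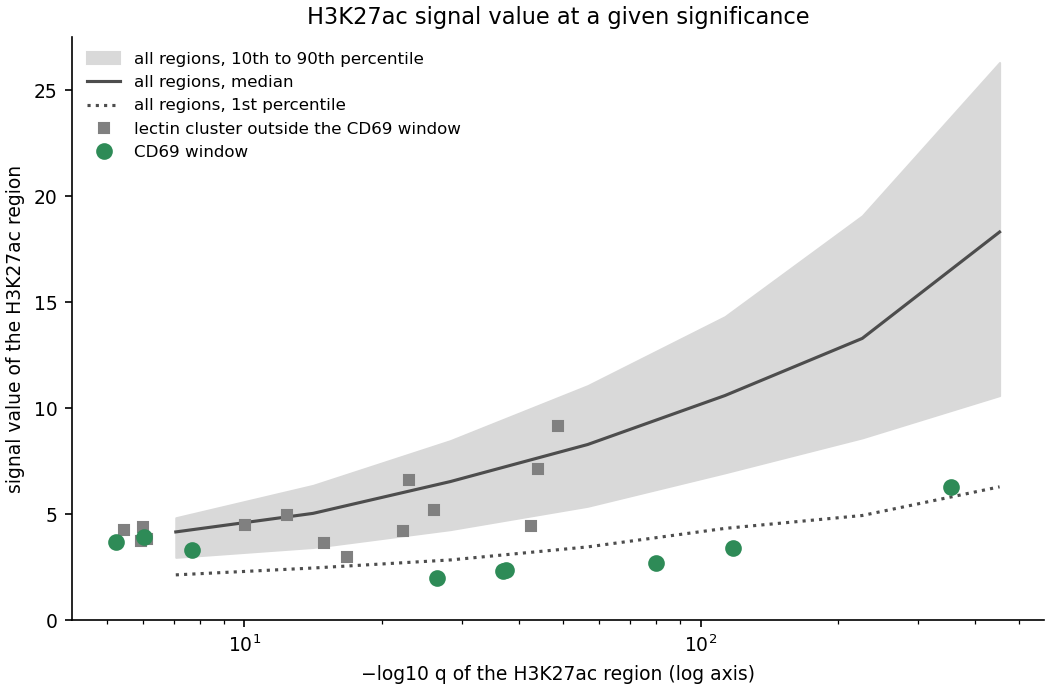
Signal value of H3K27ac regions (y axis) against their −log10 q (x axis, logarithmic), for those that reached a −log10 q of 5. Green points are the 9 such regions of the CD69 window, grey squares are the rest of the cluster, and the band and lines summarise all regions of the list in 7 classes of −log10 q. Of the CD69 regions, 5 lie below the 1st percentile line.

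Among the ligand genes, CLEC2D carried its factor regions outside the gene. Its window (record 9669713 to 9699553) held 3 GATA3, 2 BHLHE40 and 13 H3K27ac regions, and 0 factor regions overlapped the record itself. One place lay inside the pseudogene LOC374443, beyond the start of CLEC2D. There a BHLHE40 region from 9650541 to 9651768 had a signal value of 27.3 (rank 1658 of 26205), and a GATA3 region from 9650686 to 9651109 had 9.21, with summits 7 bp apart. A further GATA3 region beside it, from 9650417 to 9650635, had a signal value of 2.26, near the bottom of the list (rank 28970 of 29009). The other place, inside CLECL1 and LINC02390, paired a GATA3 region (9706271 to 9706893, signal value 22.8) with a BHLHE40 region (9706313 to 9706924, signal value 11.0), and their summits were 37 bp apart.

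The H3K27ac regions of CLEC2D were weak. The 5 highest signal values were 3.76 (9707910 to 9708302), 3.63 (9650985 to 9651622), 3.52 (9708415 to 9708627), 3.11 (9702267 to 9702871) and 2.94 (9713904 to 9714126), with the other 8 from 2.54 to 2.90. Only 2 of the 13 reached a −log10 q of 5, and the 5 regions with summits inside the record had −log10 q values from 1.57 to 2.17.

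CLEC2B, the other ligand gene, had its regions at the gene's own higher-coordinate end. A GATA3 region from 9868950 to 9870404 (signal value 10.3), a BHLHE40 region from 9868219 to 9870318 (signal value 9.34) and an H3K27ac region from 9868243 to 9870108 (signal value 4.42, −log10 q 42.6) overlapped there. The GATA3 summit lay 562 bp and the BHLHE40 summit 470 bp outside the record (9852369 to 9869354). Both factor values were close to the medians of their lists, 11.2 and 9.35, while the H3K27ac region was wide at 1866 bp, with width rank 180 of 113570. A second GATA3 region inside the gene, from 9865759 to 9866798 with a signal value of 9.28, overlapped no BHLHE40 region. It overlapped 2 H3K27ac regions, at 9865664 to 9865943 (signal value 1.64) and 9866636 to 9867615 (signal value 2.98, −log10 q 16.8), and its summit lay in the gap of 692 bp between them. The 2 other H3K27ac regions of the window had signal values of 3.45 and 2.43.

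The receptor genes had few factor regions, though KLRF1 held as many as the ligand gene CLEC2B (2 GATA3 and 1 BHLHE40). KLRB1 (record 9594551 to 9607916) had 0 GATA3 regions and 1 BHLHE40 region. The latter spanned 9615268 to 9616182, had a signal value of 4.93 (rank 24421 of 26205) and lay in an H3K27ac region from 9615019 to 9616202. That acetylated region had a signal value of 9.16, the highest of the 85 in the cluster, and a −log10 q of 48.8. It lay between genes, 1300 bp at the BHLHE40 summit from LOC374443. The 3 other H3K27ac regions of KLRB1 had signal values of 3.25 (9608146 to 9608414, at the promoter), 2.84 and 2.25.

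KLRF1 (record 9800052 to 9845005) held 2 GATA3 regions and 1 BHLHE40 region, and none of the 3 overlapped a region of another list. The GATA3 regions were at 9796384 to 9796703 (signal value 10.2), 3500 bp outside the record at the summit, and at 9810672 to 9811182 inside the gene (signal value 13.0). The BHLHE40 region at 9798056 to 9798407 had a signal value of 8.01 and its summit was 1676 bp from the nearest GATA3 summit. KLRF1 had 9 H3K27ac regions, and 0 of them reached a −log10 q of 5. The 5 with the highest signal value were 9823221 to 9823410 (3.82), 9847919 to 9848098 (3.45), 9793565 to 9793752 (3.16), 9820768 to 9820983 (3.12) and 9814086 to 9814433 (3.00), and the other 4 ranged from 2.42 to 2.68.

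CLECL1 (record 9702182 to 9734346), also named DCAL-1 for its description in dendritic cells, shared most of its regions with its neighbours. Its window held 6 GATA3, 3 BHLHE40 and 15 H3K27ac regions. Of the GATA3 regions, 5 also lay in the CD69 window and the sixth was the one from 9706271 to 9706893 shared with CLEC2D, the single GATA3 region that overlapped the CLECL1 record. By signal value they were 22.8, 14.2, 9.17, 8.65 and 7.33, with the last at 6.87. The BHLHE40 regions were the one inside the gene (11.0), the place between CLECL1 and CD69 (28.2) and the edge of the 12303 bp region over CD69 (34.4). The 5 highest H3K27ac values were 3.91 and 3.68 between CLECL1 and CD69, 3.76 and 3.52 inside the gene and 3.45 at 9722234 to 9722413, and the other 10 ranged from 2.08 to 3.11.

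**Figure D3:**
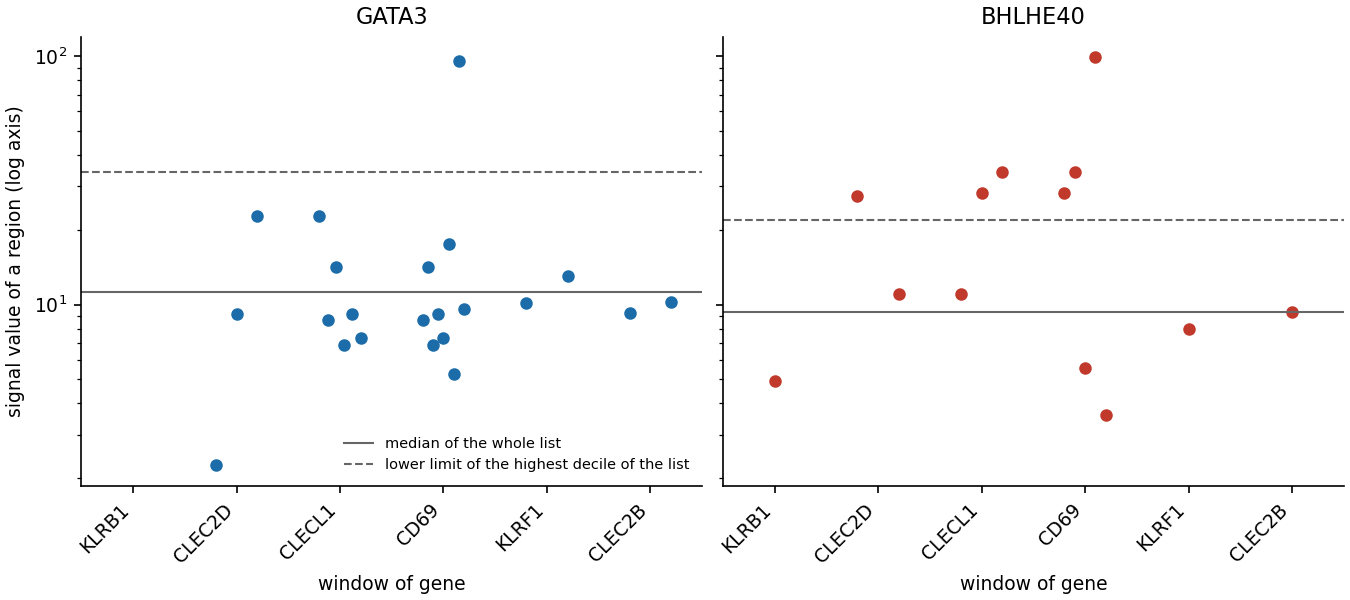
Signal value (y axis, logarithmic) of each GATA3 region (left) and BHLHE40 region (right) in the windows of the 6 genes, in chromosome order. Lines mark the median and the lower limit of the highest decile of the whole list, a region in 2 windows is drawn in both, and KLRB1 has no GATA3 point. The 1 GATA3 point above the decile line is the CD69 region with 96.1.

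Counted once each, the 6 windows held 16 GATA3, 10 BHLHE40 and 44 H3K27ac regions, of which 6, 3 and 16 lay in more than 1 window. A GATA3 region was present in the windows of 5 of 6 genes, against 61.8% of protein-coding genes, and a BHLHE40 region in 6 of 6, against 71.0%. An H3K27ac region was present in 6 of 6, against 86.8%, and one with a −log10 q of at least 5 in 5 of 6, against 70.7%. A GATA3 region that overlapped BHLHE40 was present in 4 of 6 (CD69, CLECL1, CLEC2D and CLEC2B), against 46.7%. These shares are near the background for so few genes, so the presence of a region is no result about them. Number, width and strength varied among the 6 genes.

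The cluster as a whole was then described, from 20 kb below KLRB1 to 20 kb above KLRC1 (9574551 to 10474685, 900.1 kb). It held 27 GATA3, 20 BHLHE40 and 85 H3K27ac regions. The CD69 window takes up 5.38% of this span and held 33.3% of its GATA3 regions (95% Wilson interval 18.6% to 52.2%), 25.0% of its BHLHE40 regions (interval 11.2% to 46.9%) and 16.5% of its H3K27ac regions (interval 10.1% to 25.8%). The intervals cover counting only and treat regions as independent. Some H3K27ac regions at CD69 lay close together, such as 9751437 to 9751949 and 9751999 to 9752180, so their count depends on how regions were split. Of the 23 H3K27ac regions that reached a −log10 q of 5, 9 (39.1%) lay in the CD69 window. Per 100 kb the window held 18.6 GATA3 regions against 2.11 in the rest of the span, 10.3 BHLHE40 regions against 1.76 and 28.9 H3K27ac regions against 8.34. Regions covered 21.7% of the window and 1.52% of the rest for GATA3, 35.7% and 1.61% for BHLHE40, and 14.5% and 3.15% for H3K27ac. For both factors much of the coverage at CD69 came from 1 wide region.

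**Figure D4:**
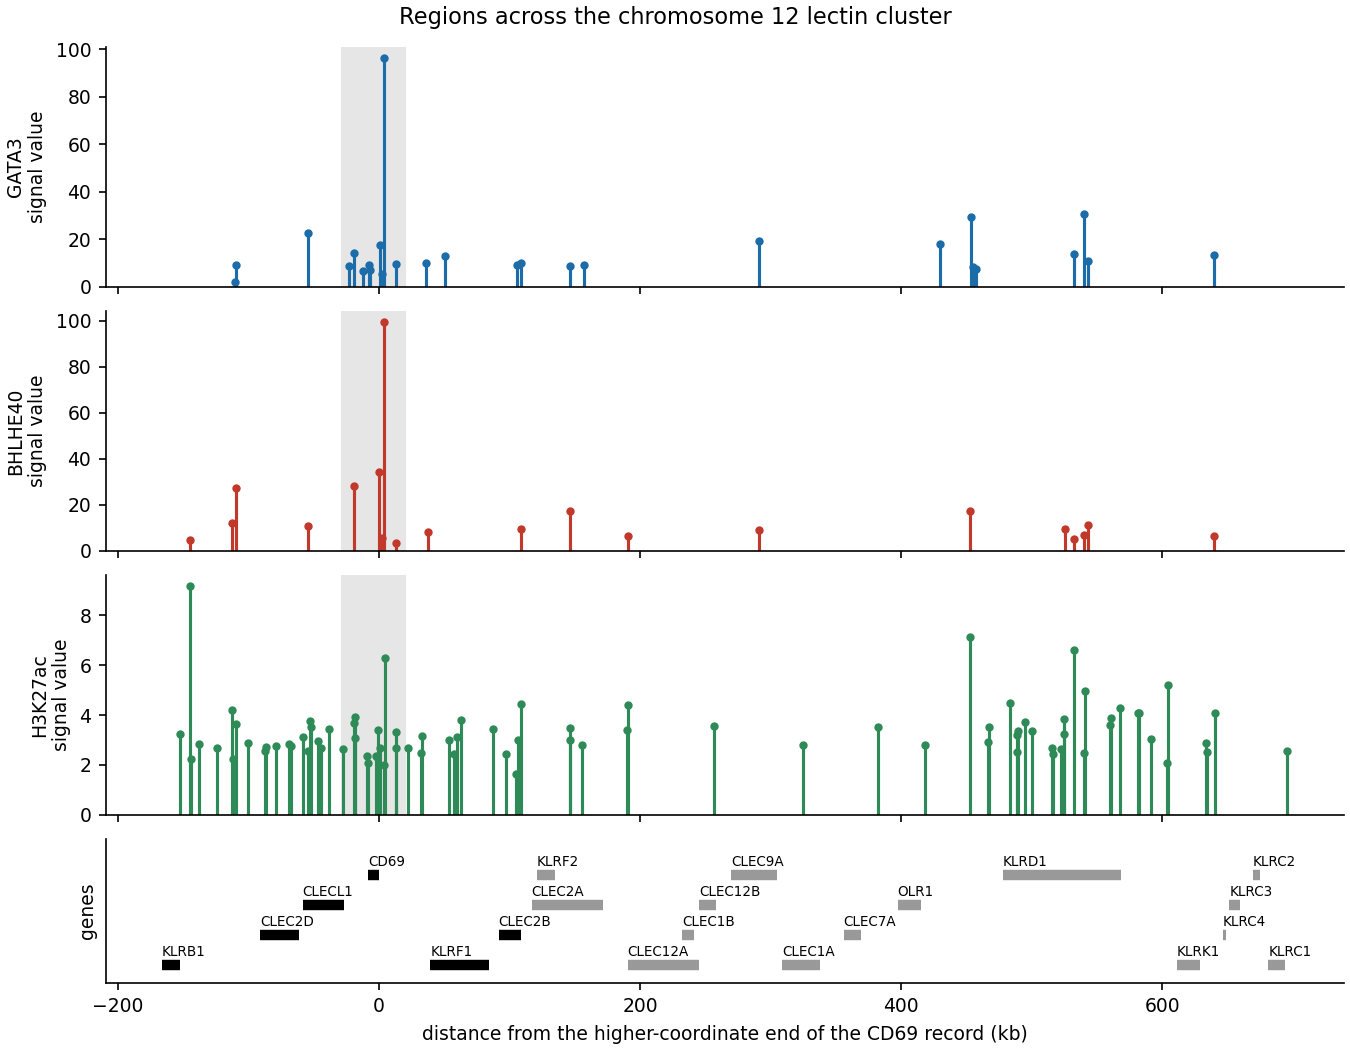
Signal value of every GATA3, BHLHE40 and H3K27ac region of the lectin cluster (y axes) at its summit, by distance in kb from the higher-coordinate end of the CD69 record. The shaded band is the CD69 window, black gene bars are the 6 genes and grey bars the other listed lectin genes. The factor values at CD69 reach 96.1 and 99.2, above all others in the span, while 3 H3K27ac regions elsewhere exceed the 6.29 at CD69.

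High signal values at CD69 were found in 1 GATA3 region and in most BHLHE40 regions. The strongest GATA3 region at CD69 had 3.15 times the signal value of the strongest elsewhere in the cluster (30.6), and the strongest BHLHE40 region 3.64 times (27.3). For H3K27ac the ratio was 0.687, since the region near KLRB1 was higher. The median signal value of the 9 GATA3 regions at CD69 was 9.17, against 10.7 for the 18 others in the cluster and 11.2 for the whole list. For BHLHE40 the median was 28.2 at CD69, 9.34 for the 15 others and 9.35 for the list, so 3 of 5 regions at CD69 lay in the highest decile of the list and 1 of 15 elsewhere did. For GATA3 the corresponding counts were 1 of 9 and 0 of 18. The 2 lists also differed in width at CD69, with medians of 789 bp for GATA3 and 1460 bp for BHLHE40 against 541 bp and 705 bp in the rest of the cluster.

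The overlap of acetylation and factors depended on the list it was counted from, and no difference was tested. Of the 14 H3K27ac regions at CD69, 12 (85.7%) overlapped a region of either factor, against 16 of 71 (22.5%) in the rest of the cluster and 26.4% in the whole list. Of these 12, 6 lay inside the single 12303 bp BHLHE40 region. The share of GATA3 regions with H3K27ac was 44.4% both at CD69 (4 of 9) and in the rest of the cluster (8 of 18), and 49.1% in the whole list. Of the BHLHE40 regions, 4 of 5 at CD69 and 11 of 15 in the rest of the cluster overlapped H3K27ac.

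Over all 21 listed lectin genes, the 6 included, 14 had a GATA3 region in the window, against 61.8% of protein-coding genes, and 15 had a BHLHE40 region, against 71.0%. An H3K27ac region was present at 20, against 86.8%, one that reached a −log10 q of 5 at 10, against 70.7%, and a GATA3 region that overlapped BHLHE40 at 12, against 46.7%. The factor shares are near the background and are no result about the cluster. With flanks of 50 kb, 19 of the 21 had a GATA3 region that overlapped BHLHE40. The share of all protein-coding genes at these wider flanks is not given here, so this count is no result about the cluster either. The windows of CLEC1B, CLEC12B, CLEC7A, KLRC2 and KLRC1 held no factor region. CLEC2A and KLRF2 held 4 and 3 GATA3 regions, CLEC9A, CLEC1A, OLR1, KLRK1, KLRC4 and KLRC3 held 1 each, partly the same ones, and CLEC12A held 1 BHLHE40 region and no GATA3 region. KLRD1 (CD94, a partner chain of NKG2 receptors) had the second strongest GATA3 region of the cluster, from 10300765 to 10301959, with a signal value of 30.6. As at the CD69 upstream place, both factor summits there lay in an H3K27ac gap (257 bp), 18 bp from each other, but the BHLHE40 region had a signal value of 7.12. The third was at GABARAPL1, from 10212270 to 10214553 with 29.3.

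**Figure D5:**
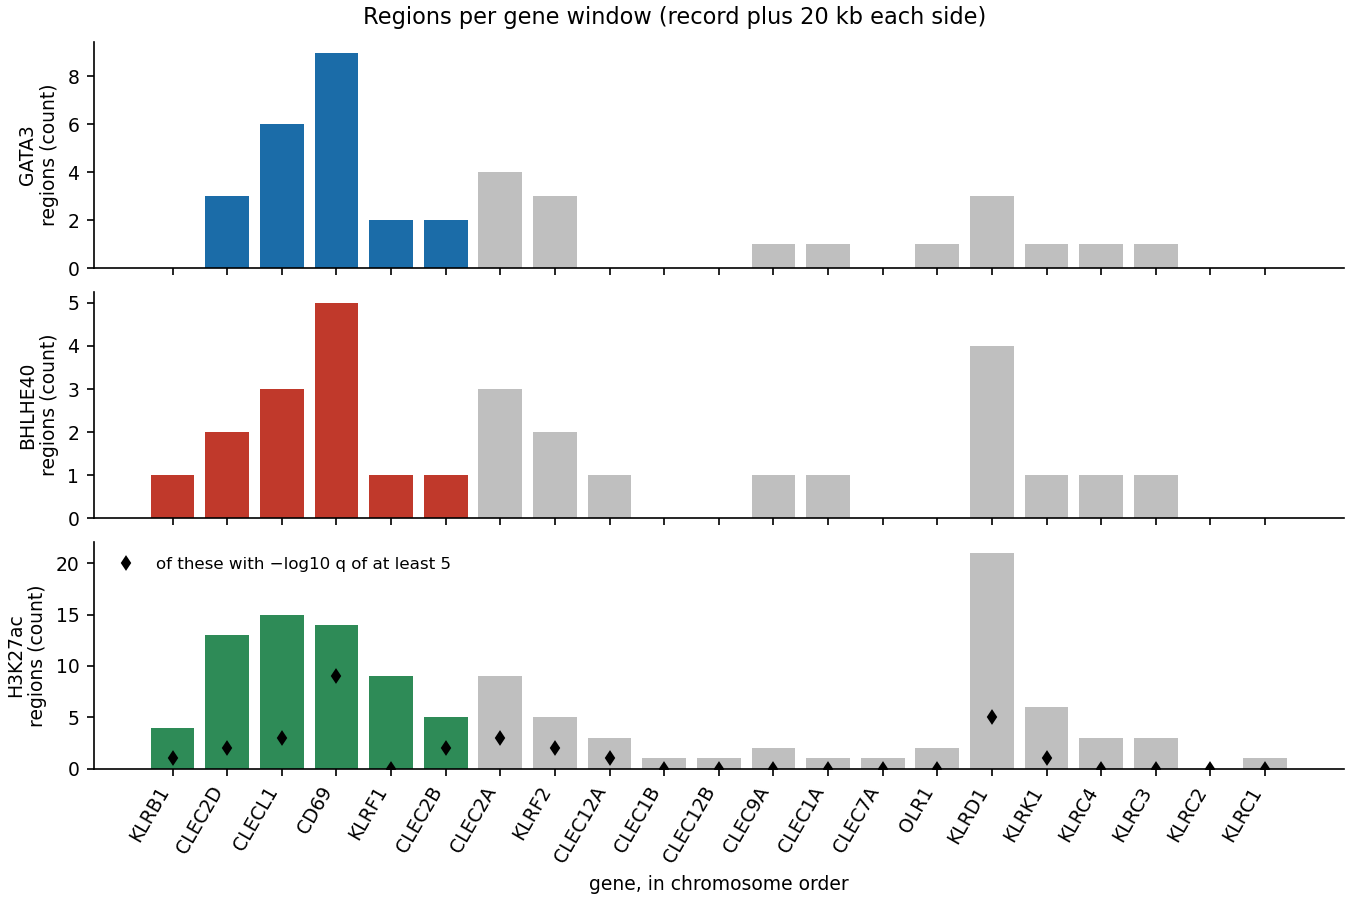
Number of GATA3, BHLHE40 and H3K27ac regions (y axes) in the window of each of the 21 lectin genes, in chromosome order. Coloured bars are the 6 genes described, grey bars the others, and diamonds count those H3K27ac regions that reached a −log10 q of 5. CD69 has the tallest bar for both factors, with 9 and 5, whereas KLRD1 has the tallest for H3K27ac.

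Genes with at least as many regions of both factors as CD69 were sought among all protein-coding genes. At least 9 GATA3 and at least 5 BHLHE40 regions were found in the windows of 283 genes (1.41%), CD69 included. The 5 with the highest summed counts were BACH2 with 38 GATA3 and 50 BHLHE40 regions, CDK6 with 48 and 38, CHST11 with 36 and 33, RUNX1 with 32 and 28, and VAV3 with 35 and 20. All 5 have long records, from 231653 bp for CDK6 to 394020 bp for VAV3, so their windows are longer than that of CD69. Among records of up to 20 kb only CD69 and LOC124903173 met both limits (0.0221%).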

How the data were processed

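The authors deposited region lists on hg38. Per the submitters' processing notes, bcl2fastq 2.20 and MACS2 (version not given) were used, while the aligner, filters and use of input samples are not given in the sources used here. Each deposited line carries a score, a signal value and a −log10 q value set by the authors. In the factor lists, named for an IDR (irreproducible discovery rate) of 0.05 over both samples, the score ran from 540 to 1000. The H3K27ac list is named as pooled, and its score was not used. What the signal value is relative to is not given in the sources used here. The lists held 29009 GATA3, 26205 BHLHE40 and 113570 H3K27ac regions.

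Regions were assigned to a gene when they overlapped its RefSeq GRCh38.p14 record plus 20 kb by at least 1 bp, and all protein-coding genes were counted in the same way. Positions are 1-based. In windows with more than 5 regions of a list, the 5 highest signal values are given and the rest by range. Lectin genes outside the 6 are named where their window held a factor region, and those without one are listed once. Other genes inside the cluster are named only where they held or lay nearest to 1 of its 3 strongest regions of a list. LINC02390, named for a region inside CLECL1, is an exception. Genes that reached both factor counts of CD69 are named by summed count. Window counts were tested on planted positions, and overlap steps against a direct count for regions sampled from the lists. The motif search was not part of these checks. Scripts ran in Python 3.11.15 (matplotlib 3.10.9, numpy 2.4.6, scipy 1.17.1, pandas 2.3.3). The genes, gene lists and measures were chosen with earlier results of these data known, and the comparisons by coverage, like −log10 q and H3K27ac gaps were added after seeing the data. Alternatives were a stricter IDR (0.01) or −log10 q, other flanks, summit rules, a 50% overlap and short records. The 16 other groups were not analysed here, and a check at genes of other blood cells is not reported here.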

Additional observations from a re-analysis of the deposited data

How the results depend on the processing

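For 11 results, 38 alternatives were computed, 3 of them added after seeing the data, and 26 left the value within 1.5 times its count or within its counting interval. With 10 kb flanks the CD69 window held 3 BHLHE40 regions in place of 5, 9 H3K27ac regions in place of 14 and 2 places with all 3 lists in place of 4. With 50 kb flanks it held 24 H3K27ac regions and 28.2% of those of the cluster, in place of 16.5%. At these flanks 19 lectin genes in place of 12 had a region shared by both factors, with no share over all genes given. A −log10 q of at least 5 left 9 H3K27ac regions at CD69 and raised their share to 39.1%. Requiring the GATA3 summit inside the other regions left 2 places, since 2 of the 4 summits lay in H3K27ac gaps. With an IDR of at most 0.01, 6 GATA3 and 4 BHLHE40 regions remained at CD69. Against records of up to 20 kb, the shares of genes that reached the counts of CD69 were 0.0332%, 5.46% and 0.243%, in place of 1.56%, 8.24% and 8.70%.

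No paired analysis was possible because the samples of a group enter 1 joint list and no test was made. Leaving out each sample was not run for the same reason. Without read counts, small differences in signal value cannot be judged.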

Other observations

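Among H3K27ac regions that reached a −log10 q of 20, those in the lowest 1% of signal value at like −log10 q numbered 94, a number that the definition largely sets. Of these, 10 lay at CDK6, which encodes a cell cycle kinase, 9 on the mitochondrial genome, 6 at PTPRC, which encodes CD45, 5 at CD69, 5 at the T-cell receptor beta locus (TRB) and 59 elsewhere. The names were chosen after the values were seen.

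Between CD69 and the KLRD1 end of the cluster, long stretches held no factor region. The longest without GATA3 was 138168 bp (10052638 to 10190805) and the longest without BHLHE40 was 159526 bp (10052544 to 10212069), both from CLEC9A across CLEC7A. The longest stretch of the cluster without an H3K27ac region was 68248 bp.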
